A study of Mus musculus with 12 samples.

Results

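The 10 genes described here mark the endothelium that lines the sinusoids of the liver: Stab1, Stab2, Mrc1, Lyve1, Fcgr2b, Clec4g, Kdr, Eng, Ptprb and Egfl7. They were taken by name from the 27179 gene IDs of the count tables, through their Entrez IDs, and all 10 were counted in all 12 libraries and passed the filter on low counts. RNA was sequenced from livers of male C57BL/6 mice after separation on sucrose gradients, to compare RNA on heavy polysomes, with many ribosomes per mRNA, with RNA on light polysomes. Each of 6 animals gave a heavy and a light library. The labels do not say which range of gradient fractions formed the heavy pool, so the pool names were used as given. The 3 chow animals and the 2 keto animals were wild type, and the keto animals were kept for 24 h on a ketogenic diet, in which fat replaces most of the carbohydrate. The S209A animal (1 animal) ate chow and carried eIF4E S209A on both alleles, which removes the serine that the MNK kinases phosphorylate on the cap-binding factor eIF4E. The sources used here give no age, and whole liver was used, so each value mixes all liver cells.

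Sinusoidal endothelial cells form a fenestrated wall without a continuous basement membrane between the blood and the hepatocytes. They clear hyaluronan, modified proteins and small immune complexes from the blood through scavenger and lectin receptors, and they answer to VEGF and to the BMP ligands that bind endoglin. Polysome position reports how many ribosomes an mRNA carries, and RNA-protein complexes of similar mass sediment in the same fractions. In bulk tissue, fewer cells of a type and less RNA per cell cannot be told apart.

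Sequences upstream of Stab2 and Stab1 are shown because these related receptors both stood at a heavy over light ratio under 0.5 in chow 1 and chow 2. That holds with the library scaling used below. With plain library totals Stab2 was at 0.499 and 0.785 and Stab1 at 0.772 and 0.971 in chow 1 and chow 2. The microRNA is shown because it lies within Egfl7. RefSeq upstream sequences of build GRCm38.p6 were matched for 8 of the 10 genes, and not for Ptprb and Lyve1. Capitals mark AGGAAG or its reverse complement CTTCCT, a form of the core that ETS factors bind, in the 250 bases before a RefSeq transcript start, written in the direction of transcription. The Stab2 window is chr10:87007943-87008192 and the Stab1 window is chr14:31168642-31168891, both on the minus strand. These starts are not the outermost ones of the genes: the last 96 bases of the Stab2 window, which hold its capitals, and the last 10 of the Stab1 window lie within the annotated gene span.
Stab2: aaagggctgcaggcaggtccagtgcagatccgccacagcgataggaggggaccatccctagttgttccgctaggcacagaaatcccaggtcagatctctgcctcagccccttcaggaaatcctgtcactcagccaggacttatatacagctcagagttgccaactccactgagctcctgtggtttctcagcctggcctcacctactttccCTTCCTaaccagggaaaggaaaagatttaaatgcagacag
Stab1: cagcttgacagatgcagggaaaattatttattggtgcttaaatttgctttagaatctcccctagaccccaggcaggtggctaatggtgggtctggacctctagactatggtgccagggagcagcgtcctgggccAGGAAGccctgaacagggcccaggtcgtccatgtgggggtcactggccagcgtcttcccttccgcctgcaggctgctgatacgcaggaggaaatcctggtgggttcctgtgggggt
This 6-base motif, searched on both strands, was found in 7 of the 10 windows of the 8 matched genes (of Stab1, Stab2, Mrc1, Eng, Clec4g and 2 of the 3 of Egfl7) and in 29.5% of 32851 upstream windows of the same length. The GATA motif AGATAA, or its reverse complement TTATCT, was found in 0 of the 10 windows and in 9.99% of all windows. The mature microRNA mmu-miR-126a-3p is encoded at chr2:26591402-26591423, on the plus strand and within the Egfl7 gene (chr2:26581083-26592682), and its seed (bases 2 to 8) is in capitals.
mmu-miR-126a-3p: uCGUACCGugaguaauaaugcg
The Mir126a gene received 3 counts in all, in 1 of the 12 libraries, so the counts of Egfl7 were not set beside it.

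The light library of S209A was the smallest, with 3341046 counts, and the heavy library of keto 1 the largest, with 13263355, of which nuclear protein-coding genes held 356544 (keto 2 light) to 1776829 (chow 3 heavy). The 10 markers together received 433 counts (keto 2 light) to 2053 (chow 3 light), and single markers received 2 (Lyve1, chow 2 heavy) to 663 (Stab2, chow 3 heavy). Levels are given as CPM, counts divided by a library size that was scaled by TMM, and a ratio is the heavy CPM over the light CPM of the same animal. Among genes with 1 to 10 counts, 66.4% to 74.6% had an even count in the libraries of chow 1, chow 2 and the keto animals, and 88.8% to 90.9% in those of chow 3 and S209A, so counts are not all independent molecules. The 95% intervals beside ratios are therefore exact (Clopper-Pearson) intervals on counts multiplied by 0.5, and they cover counting error only. Hepatocyte genes summed to 7845 to 30867 CPM, while the summed lymphocyte and neutrophil genes reached at most 1.57 CPM, and Krt19, a cholangiocyte marker, received 2 counts in all. The titles call chow 3 and S209A fed, where those of the other animals say chow or keto. The file headers name the aligner HISAT2 for chow 3 and S209A, Bowtie2 for chow 1 and chow 2, and no aligner for keto. In chow 3 the share of nuclear protein-coding counts was 29.7% in heavy and 39.2% in light, against 6.53% to 22.2% across chow 1 and chow 2, so results on chow are given with and without this animal.

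The markers were counted less in heavy than in light libraries in chow 1 and chow 2, and by less in chow 3, while keto 1 ran the other way. Their summed level was 112, 66.7 and 146 CPM in the heavy libraries of chow 1, 2 and 3, and 216, 112 and 160 CPM in the light libraries. In keto 1 it was 169 CPM in heavy and 147 CPM in light, and in keto 2 it was 124 and 153 CPM. In S209A it was 118 CPM in heavy and 127 CPM in light. The heavy library was lower in 5 of the 6 animals, and keto 1 was the exception. The summed ratio was 0.517 [0.442 to 0.603] in chow 1, 0.595 [0.503 to 0.702] in chow 2 and 0.915 [0.838 to 0.999] in chow 3. It was 1.15 [1.003 to 1.31] in keto 1, 0.810 [0.680 to 0.967] in keto 2 and 0.933 [0.825 to 1.05] in S209A. These directions depend on the scaling: with library totals in place of the TMM-scaled size, the summed ratio was 1.20 in chow 2 and 1.41 in keto 2, and with nuclear protein-coding counts it was 1.10 in S209A. Library totals moved the median log2 ratio of all genes by up to 1.01 (chow 2). With library totals 5, 3 and 10 markers had a ratio below 1 in chow 1, 2 and 3, 5 in keto 1, 4 in keto 2 and 6 in S209A, in place of 7, 9 and 6 in chow, 3 in keto 1, 8 in keto 2 and 5 in S209A. The markers are therefore also given relative to that median, where the 3 scalings give the same value. On that footing the markers' median log2 ratio was -0.67, -0.44 and -0.21 in chow 1, 2 and 3, 0.28 in keto 1, -0.62 in keto 2 and -0.16 in S209A.

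**Figure D1:**
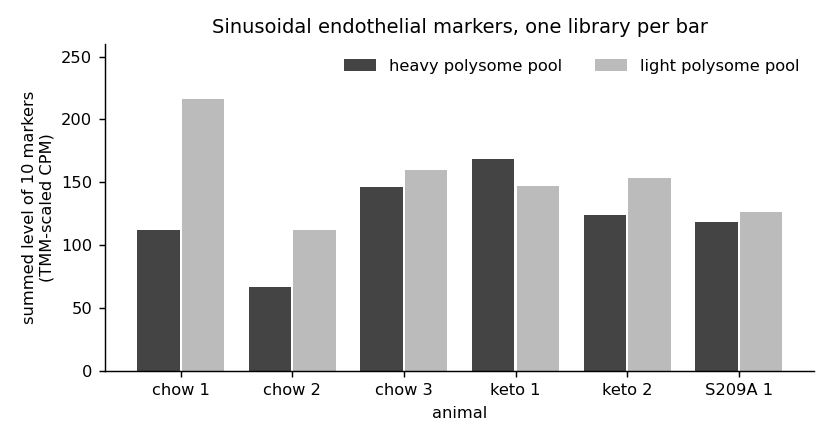
Summed level of the 10 sinusoidal endothelial markers (vertical axis, TMM-scaled CPM) in the heavy (dark bars) and light (pale bars) library of each animal, with 1 library per bar and no error bars. The light bar is the taller in every animal except keto 1; scaled by library totals instead, the heavy value is the higher in chow 2 and keto 2 too.

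The scavenger and lectin receptors carried both the largest and the least settled differences in chow. Stab2 (chr10:86841194-87008038), the receptor that clears hyaluronan from the blood, was at 18.4, 13.2 and 48.3 CPM in the heavy libraries of chow 1, 2 and 3, from 74, 91 and 663 counts. In the light libraries it was at 58.6, 33.9 and 45.4 CPM, from 337, 236 and 582 counts. With TMM scaling, chow 1 and chow 2 were low in heavy, and chow 3 was not. The ratio was 0.313 [0.213 to 0.450] in chow 1, 0.389 [0.270 to 0.552] in chow 2 and 1.07 [0.908 to 1.25] in chow 3. With library totals the ratio was 0.499 [0.340 to 0.716] in chow 1, 0.785 [0.545 to 1.11] in chow 2 and 0.783 [0.667 to 0.920] in chow 3. The contrast of chow 2 with chow 3 thus rests on the scaling. The chow estimate over 3 animals was log2 -0.97 ± 0.37 (SE of the fit over 12 libraries). Its unadjusted p was 0.00825 and its adjusted p 0.364 in edgeR's quasi-likelihood test. Without chow 1 the estimate was -0.61 and without chow 2 it was -0.79, with adjusted p-values of 1 and 0.999. With chow 3 left out, the estimate was -1.55 and the adjusted p of that test 0.00208. With the S209A animal left out as well, it was -1.53 with an adjusted p of 0.00271.

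Stab1 (chr14:31139017-31168651), the other stabilin scavenger receptor, was at 8.69, 9.13 and 24.1 CPM in the heavy libraries of chow 1, 2 and 3 and at 17.9, 19.0 and 22.8 CPM in the light libraries. The ratio was 0.485 [0.265 to 0.848] in chow 1 and 0.481 [0.304 to 0.747] in chow 2, against 1.05 [0.838 to 1.33] in chow 3. With library totals it was 0.772, 0.971 and 0.774 in chow 1, 2 and 3, so this contrast too rests on the scaling. As for Stab2, the high heavy value was that of chow 3, while with TMM scaling the light values of the 3 animals lay close together. Divided by library totals, chow 3 was the highest in light too, from 293 counts against 103 and 132 in chow 1 and chow 2. The chow estimate was log2 -0.65 ± 0.41, with an adjusted p of 0.842 in edgeR's test.

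Mrc1 (chr2:14229414-14332023) encodes the mannose receptor, which macrophages also carry. It was at 9.68, 5.51 and 10.5 CPM in heavy and 14.8, 6.04 and 10.1 CPM in light in chow 1, 2 and 3. All 3 ratios had intervals that held 1, and the estimate was log2 -0.22 ± 0.46. Lyve1 (chr7:110850607-110862953), a hyaluronan receptor, had the fewest counts of the 10. Its heavy libraries held 20, 2 and 31 counts and its light libraries 16, 24 and 34 in chow 1, 2 and 3. The ratio therefore ran from 0.0841 [0.00197 to 0.568] in chow 2 to 1.78 [0.634 to 5.20] in chow 1, and its direction differed among chow animals.

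Fcgr2b (chr1:170960558-170976071), the inhibitory Fc receptor that takes up small immune complexes here, was at 7.70, 2.03 and 3.21 CPM in heavy and 4.70, 2.16 and 9.35 CPM in light in chow 1, 2 and 3. Chow 3 had the low ratio of this gene, 0.343 [0.200 to 0.567], against 1.64 [0.739 to 3.68] in chow 1 and 0.941 [0.286 to 3.05] in chow 2. Clec4g (chr8:3707066-3720695), a C-type lectin, was at 6.21, 3.48 and 4.88 CPM in heavy and 3.83, 2.16 and 6.55 CPM in light. It was the marker with a positive chow estimate, log2 0.29 ± 0.62, and the intervals of its ratios held 1 in all 6 animals. For both genes the ratio of chow 3 was below that of chow 1, the reverse of Stab1 and Stab2.

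With TMM scaling, Kdr, Eng and Ptprb, which act in signalling, were lower in heavy than in light in each chow animal. With library totals the ratio in chow 2 was 1.51 for Kdr, 1.65 for Eng and 1.49 for Ptprb, so this direction rests on the scaling. Kdr (chr5:75932827-75979072), the main VEGF receptor of endothelium, was at 14.2, 6.67 and 9.99 CPM in heavy and 20.005, 8.91 and 12.3 CPM in light in chow 1, 2 and 3. It was at 8.96 and 8.11 CPM in heavy and 10.5 and 15.2 CPM in light in keto 1 and keto 2, and at 8.74 CPM in heavy and 13.5 CPM in light in S209A. The heavy value was the lower in each animal, with ratios from 0.534 (keto 2) to 0.855 (keto 1), a pattern that 1.49% of all tested genes had; scaled by library totals, its ratio was 1.13 in chow 1 and 1.51 in chow 2. Its interval lay below 1 in S209A, at 0.648 [0.422 to 0.990], and held 1 in the other 5 animals. Over all animals the estimate was log2 -0.49 ± 0.29, with an adjusted p of 0.998 in edgeR's test.

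Eng (chr2:32646595-32682669), the co-receptor for BMP ligands, was at 9.68, 6.81 and 11.0 CPM in heavy and 15.8, 8.34 and 16.1 CPM in light in chow 1, 2 and 3. Ptprb (chr10:116275502-116389538), the phosphatase that acts on the TIE receptor and VE-cadherin, was at 28.6, 16.1 and 23.8 CPM in heavy and 67.3, 21.8 and 27.4 CPM in light. Egfl7, a secreted endothelial protein, was at 3.72, 3.48 and 8.31 CPM in heavy and 10.4, 6.32 and 7.33 CPM in light. With TMM scaling, Egfl7 was lower in heavy in chow 1 and chow 2 and not in chow 3. With library totals its ratio was 0.568, 1.11 and 0.834 in chow 1, 2 and 3, so the directions in chow 2 and chow 3 rest on the scaling. For Ptprb the ratio was 0.424 [0.310 to 0.572] in chow 1, 0.737 [0.511 to 1.05] in chow 2 and 0.869 [0.698 to 1.08] in chow 3.

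**Figure D2:**
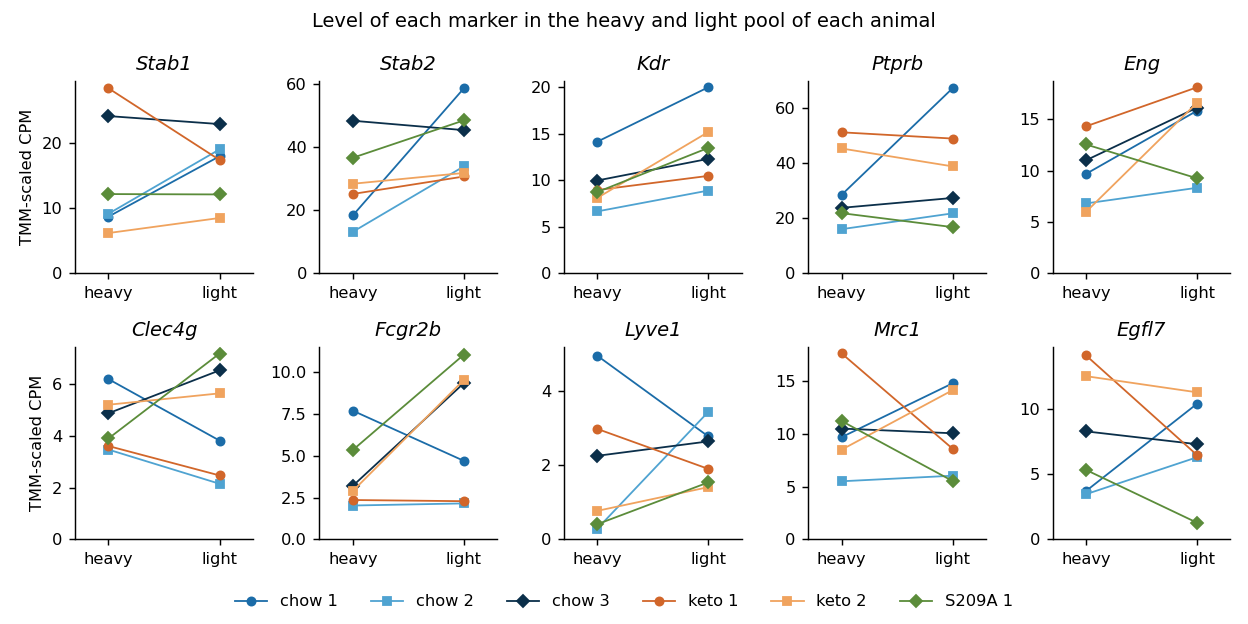
Level of each marker (vertical axis, TMM-scaled CPM, from 0, a scale of its own per gene) in the heavy and light library of each animal, with a line joining the libraries of 1 animal. For Stab2 the lines of chow 1 and chow 2 climb steeply to the light library and that of chow 3 does not. For Kdr all 6 lines climb. With library totals in place of TMM, the Stab2 ratio is 0.785 in chow 2 and 0.783 in chow 3. On that scale the Kdr ratio is above 1 in chow 1 and chow 2.

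Over the 3 chow animals, 9 of the 10 markers had a negative heavy over light estimate, with a median of -0.57, against a median of -0.09 over all genes, of which 54.7% were negative. By edgeR's quasi-likelihood test 0 of the 10 passed an adjusted p of 0.05, against 0.208% of the 10555 genes (22 genes, 17 higher and 5 lower in heavy). Without adjustment, 1 marker (Stab2) had a p under 0.05, against 7.09% of all genes. Limma-voom called 32 genes and 0 markers. DESeq2 called 94 genes and gave an adjusted p for 2 of the 10 markers, 0.0972 for Stab2 and 0.251 for Ptprb. With TMM scaling, Kdr, Eng and Ptprb, 3 of the 10, had a ratio below 1 in all 3 chow animals, as did 16% of all genes. In chow 1 and chow 2 together 7 of the 10 did, as did 32.2% of all genes.

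Leaving out chow 3 moved the markers unequally. Without it, edgeR called 1 of the 10 markers (Stab2) lower in heavy, against 0.957% of all genes called lower, and it called 385 genes in all (3.65%), in place of 22. The estimate without chow 3 was log2 -1.08 for Stab1, -0.88 for Ptprb and -1.19 for Egfl7, and their adjusted p-values were 0.278, 0.193 and 0.432. Kdr was at -0.49 and Eng at -0.53, close to their values with 3 animals, Clec4g was at 0.66, and Fcgr2b turned from -0.34 to 0.31. The markers' median was -0.70 without chow 3, and relative to the median of all genes it was -0.52 in place of -0.48. Over all 6 animals the median was -0.37 with 7 of 10 negative, against -0.01 for all genes, of which 51% were negative, and it ran from -0.49 (without keto 1) to -0.18 (without chow 2) when 1 animal was left out; 0 of 10 were called against 0.00947% of all genes (1 gene), and Stab2 had the lowest unadjusted p of the markers, 0.0294, at log2 -0.62 ± 0.27, where 3.35% of all genes were under 0.05.

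**Figure D3:**
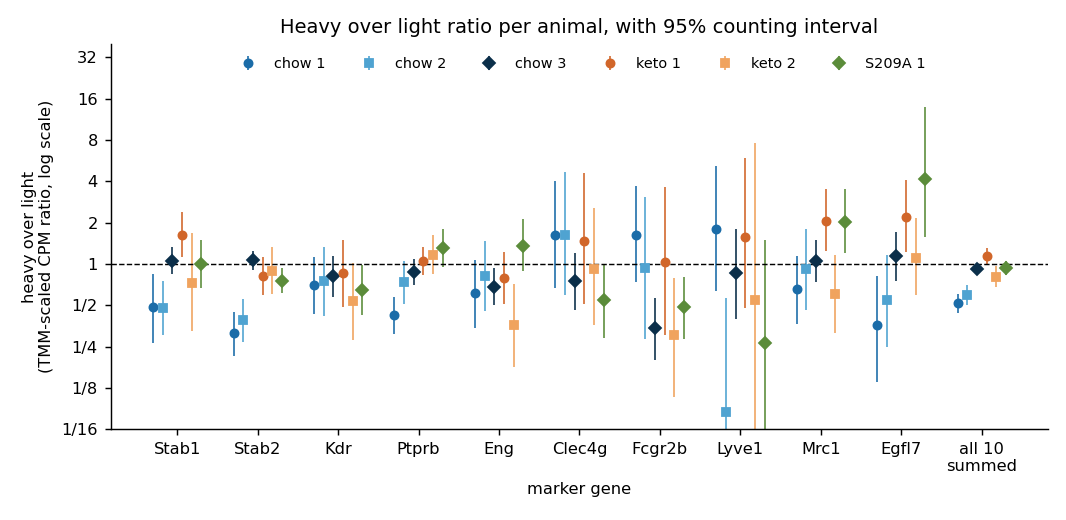
Heavy over light ratio (vertical axis, log scale) of each marker and of their sum in each animal, with exact 95% intervals for counting error on counts multiplied by 0.5; intervals that pass the lower edge of the axis are cut there. The ratios of Stab2 in chow 1 and chow 2 lie apart from 1 and from that of chow 3, while most intervals of Clec4g and Lyve1 span 1. With library totals as the scale, the Stab2 ratio is 0.785 in chow 2 and 0.783 in chow 3. On that scale the summed ratio turns above 1 in chow 2 and keto 2.

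Other gene lists moved between the pools in the same animals. The median log2 ratio of nuclear RNAs, which ribosomes do not translate, was -2.14 in chow 1, -1.97 in chow 2 and -0.16 in chow 3, and 0.55, 0.09 and 0.26 in keto 1, keto 2 and S209A. The median of the hepatocyte genes was 1.296, 0.99 and 0.37 in chow 1, 2 and 3, and -0.09, -0.27 and -0.28 in keto 1, keto 2 and S209A. With TMM scaling, chow 1 was thus the farthest from 0 and chow 3 the nearest for the markers as for both lists. The markers' medians were -0.66, -0.43 and -0.22, on the side of the nuclear RNAs and opposite to the hepatocyte genes. With library totals they were 0.01, 0.58 and -0.66 in chow 1, 2 and 3. Relative to the median of all genes they were -0.67, -0.44 and -0.21 with each scaling. The part of either list in the markers' values was not tested. Over the chow animals the nuclear RNAs had a median of -1.34, with 9 of 9 negative and 1 called (Rn7sk, log2 -2.05 ± 0.41, adjusted p of 0.0021 by edgeR). The hepatocyte genes had a median of 0.86, with 11 of 13 positive and 1 called (Fgb, a fibrinogen chain, log2 1.76 ± 0.39, adjusted p of 0.00861 by edgeR). Macrophages are also known to carry Mrc1 and Stab1, and Kupffer cell genes had a median of 0.24 with 6 of 14 negative, and 0 were called. Their summed level was 53.3 to 122 CPM in chow heavy and 45.7 to 73.0 CPM in chow light, with 0 of 14 genes at 0 counts in either.

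**Figure D4:**
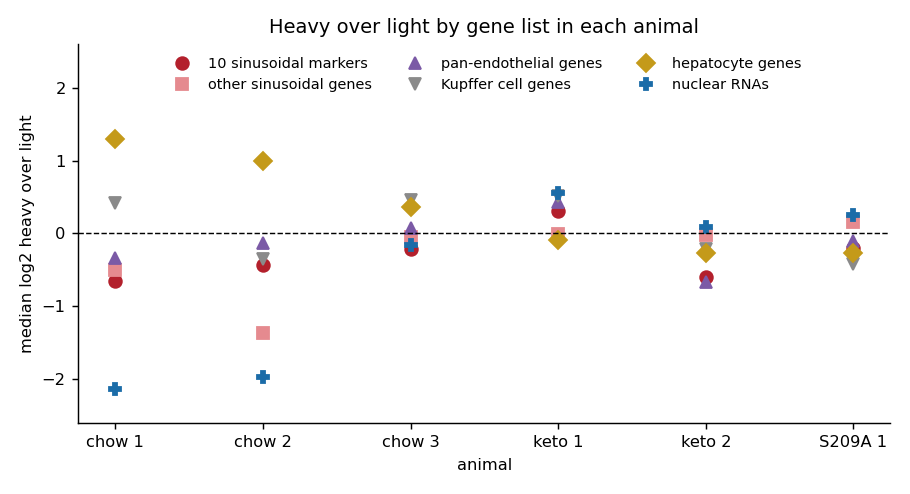
Median log2 heavy over light ratio (vertical axis, with 0.5 added to each count for the other lists) of the 10 markers and of 5 other gene lists in each animal. In chow 1 and chow 2 the nuclear RNAs lie near -2 and the hepatocyte genes near 1, with the markers between them, and in chow 3, the keto animals and S209A the lists lie closer together; library totals shift all lists of an animal alike.

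Among 20 other genes of sinusoidal endothelium, 18 were tested and Cd209a was at 0 counts. In chow their median was -0.80, with 13 of 18 negative and 0 called (lowest adjusted p 0.0893 by edgeR), so this list lay on the same side of all genes as the 10 markers. The 5 with the most counts were Ehd3 (-0.81 ± 0.41), Maf (0.45 ± 0.45), Flt4 (-0.79 ± 0.51), Adam23 (-0.29 ± 0.54) and F8 (-0.83 ± 0.55), as chow log2 estimates. The median log2 ratio of the 18 genes was -0.50, -1.37 and -0.05 in chow 1, 2 and 3. It was -0.01, -0.02 and 0.16 in keto 1, keto 2 and S209A, where that of the 10 markers was 0.31, -0.60 and -0.20. Of 17 tested genes common to all endothelium, 10 were positive in chow, with a median of 0.08, and 0 were called. By animal, their median log2 ratio was -0.33 in chow 1, -0.13 in chow 2 and 0.07 in chow 3. Cdh5, which encodes VE-cadherin, was at 0.19 ± 0.57, and Flt1, a VEGF receptor, at -1.25 ± 0.73. The difference between these lists was not tested.

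The pathway in which Kdr, Eng and Ptprb act was read from 28 ligands, receptors and signal carriers, of which 24 were tested. In chow 20 of the 24 had a negative estimate and 4 a positive one, with a median of -0.49, and 0 passed in either direction (lowest adjusted p 0.728 by edgeR). Vegfa, the VEGF ligand that hepatocytes supply, was at log2 -0.67 ± 0.35 with an unadjusted p of 0.0561. Nrp1, a VEGF co-receptor, was at -0.09 ± 0.45, Plcg1, which carries the KDR signal, at -0.57 ± 0.47, and Smad7, an inhibitor of BMP and TGF-beta signals, at -0.15 ± 0.52. Other scavenger and clearance receptors, which several liver cell types carry, had 7 of 10 positive with a median of 0.37 and 0 called; Lrp1 was at 0.25 ± 0.36.

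The ketogenic diet was set against chow within each pool. In the heavy pool Ptprb was at 51.3 and 45.4 CPM in keto 1 and keto 2, above the 28.6, 16.1 and 23.8 CPM of the chow animals. Egfl7 was at 14.2 and 12.6 CPM in keto 1 and keto 2, above the 3.72, 3.48 and 8.31 CPM of chow. With TMM scaling these 2 of 10 markers had both keto animals above all 3 chow animals, as did 14.5% of all genes. On that scale 0 of 10 had both below, against 13.4%. The TMM factors were 0.480 and 0.566 in keto heavy, against 1.03, 1.33 and 2.29 in chow heavy. Nuclear protein-coding shares were 5.60% and 6.01%, against 15.9%, 22.2% and 29.7%. Divided by library totals, neither Ptprb nor Egfl7 had both keto animals above chow, and several others, among them Stab2, had both below. The separation thus rests on the scaling. The estimate was log2 1.10 ± 0.43 for Ptprb, with an unadjusted p of 0.0260 and an adjusted p of 0.472 by edgeR. For Egfl7 it was 1.37 ± 0.57, with an unadjusted p of 0.0356 and an adjusted p of 0.514. Against chow 1 and chow 2 alone, whose titles are worded as those of the keto animals, the estimates were 1.17 and 1.95, with adjusted p-values of 0.334 and 0.211.

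With TMM scaling, the other 8 markers overlapped between the diets in the heavy pool. Stab1 was at 28.3 CPM in keto 1 and 6.18 CPM in keto 2, the highest and the lowest of its 12 libraries, and its estimate was 0.32 ± 0.68. Stab2 was at 25.2 and 28.4 CPM, within the chow range, with an estimate of 0.03 ± 0.56. By edgeR 0 of 10 markers passed, against 0% of 8868 genes; without adjustment 2 markers had a p under 0.05, against 9.01% of genes (799). Limma-voom called 4 genes and 0 markers, and DESeq2 called 92 genes and 0 of the 7 markers for which it gave an adjusted p. The markers' median was 0.10, with 4 of 10 negative, beside -0.06 over all genes, of which 52.3% were negative, and it ran from -0.15 (without keto 1) to 0.60 (without chow 3) when 1 animal was left out. The summed nuclear RNAs were at 11077 to 13110 CPM in keto heavy against 1531 to 2689 CPM in chow heavy, and their part in the markers' values was not tested.

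In the light pool, Stab2 was at 30.7 and 31.8 CPM in keto 1 and keto 2, below the 58.6, 33.9 and 45.4 CPM of chow. Stab1 was at 17.3 and 8.48 CPM, below 17.9, 19.0 and 22.8 CPM, and Lyve1 at 1.91 and 1.41 CPM, below 2.78, 3.45 and 2.65 CPM. With TMM scaling these 3 had both keto animals below all 3 chow animals, as did 14.6% of all genes. Eng alone of the 10 had both above, at 18.1 and 16.6 CPM against 15.8, 8.34 and 16.1 CPM, as did 11.2% of genes. Divided by library totals, Stab2, Stab1 and Lyve1 still had both keto animals below chow, while Eng no longer had both above. The estimates were log2 -0.55 ± 0.46 for Stab2, -0.59 ± 0.48 for Stab1 and 0.38 ± 0.47 for Eng. By edgeR 0 of 10 markers passed, against 0% of 9666 genes, and 0 had an unadjusted p under 0.05, against 6.36% of genes (615); DESeq2 and limma-voom called 0 genes. The markers' median was -0.0047 with 5 of 10 negative, beside -0.11 over all genes, of which 55.3% were negative, and it ran from -0.37 (without chow 2) to 0.22 (without keto 1).

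**Figure D5:**
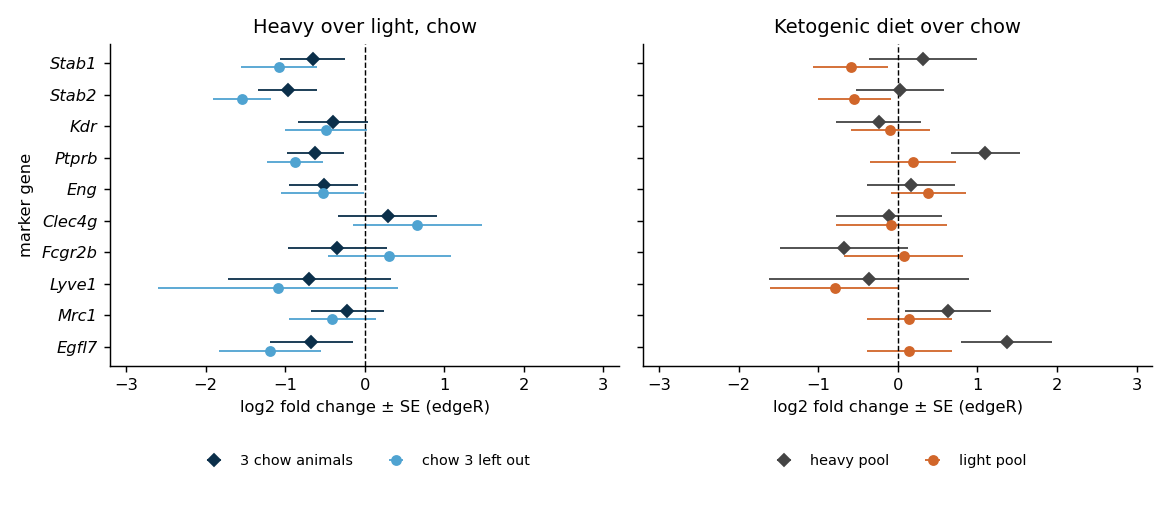
Log2 fold changes of the markers from edgeR, with bars of 1 SE. Left, heavy over light in chow with 3 animals (dark diamonds) and with chow 3 left out (pale circles), where Stab2 goes from -0.97 to -1.55; right, ketogenic diet over chow in the heavy pool (dark diamonds) and the light pool (orange circles), where Ptprb and Egfl7 lie highest in the heavy pool.

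The heavy over light ratio itself was set against diet in an interaction test. The markers' median difference, keto minus chow, was log2 0.55 with 6 of 10 positive, beside 0.15 over all genes, of which 45.7% were negative. By edgeR 0 of 10 passed, against 0.142% of genes (15 genes), and 0 had an unadjusted p under 0.05, against 6.01%; limma-voom called 19 genes and 0 markers, and DESeq2 called 10 genes and 0 of the 3 markers for which it gave an adjusted p. Egfl7 had the largest value, 1.32 ± 0.81 with an adjusted p of 0.925, from ratios of 2.18 [1.23 to 4.07] and 1.11 [0.593 to 2.16] in keto 1 and keto 2 against 0.357, 0.550 and 1.13 in chow. With TMM scaling, Ptprb was the marker whose ratio was above all 3 chow animals in both keto animals, at 1.05 [0.825 to 1.33] and 1.17 [0.841 to 1.64]. This held for 13.5% of genes, and 0 of 10 had both below, against 9.97% of genes. With library totals the Ptprb ratio was 0.919 in keto 1, below the 1.49 of chow 2. With TMM scaling, Stab1 had a ratio of 1.63 [1.13 to 2.38] in keto 1 and 0.729 [0.323 to 1.69] in keto 2, intervals that overlap. Mrc1 had 2.05 [1.24 to 3.51] and 0.601 [0.313 to 1.16]. With library totals Stab1 was at 1.43 and 1.27 and Mrc1 at 1.80 and 1.05. The opposite directions in the keto animals thus rest on the scaling. With keto 1 left out, the markers' median difference was -0.29. The chow 3 animal also mattered, since 214 genes were called without it, with 0 markers among them. The diet cannot be told apart from the wording of the file headers, which name a read file in the keto libraries and an aligner in the chow libraries.

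The single S209A animal gives values with no test. With TMM scaling, 8 of 10 markers lay within the chow range in the heavy pool. The other 2 of 10 lay above all 3 chow animals, as did 22.4% of genes: Eng at 12.5 CPM and Mrc1 at 11.2 CPM. Divided by library totals, Eng and Fcgr2b lay above chow and Mrc1 did not. In the light pool, again with TMM scaling, 5 of 10 (Stab1, Ptprb, Lyve1, Mrc1 and Egfl7) lay below all 3 chow animals, against 30.7% of genes. On that scale 2 of 10 (Clec4g and Fcgr2b) lay above, against 27.3%. Divided by library totals, Egfl7 alone of these 5 stayed below, and Clec4g and Fcgr2b were within the chow range. The TMM factor was 2.33 in S209A light, against 0.645, 0.660 and 3.12 in chow light. Egfl7 stood at 1.29 CPM in the light library, from 10 counts, against 10.4, 6.32 and 7.33 CPM in chow, and at 5.35 CPM in the heavy library, from 52 counts. Its ratio was 4.16 [1.57 to 13.9], the highest of any marker in any animal, and that of Mrc1 was 2.03 [1.21 to 3.51]. Egfl7, Mrc1, Eng and Ptprb, 4 of 10, had ratios above all 3 chow animals, as did 31.1% of genes, and Kdr and Clec4g, 2 of 10, below, as did 24% of genes. With library totals Eng was at 1.24 and Ptprb at 1.19, below their 1.65 and 1.49 in chow 2, so both rest on the scaling. Stab2, at 36.6 CPM in heavy and 48.5 CPM in light from 356 and 377 counts, had a ratio of 0.756 [0.612 to 0.933], between those of chow 2 and chow 3. With library totals it was 0.692, below the 0.785 of chow 2 and the 0.783 of chow 3.

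The levels across the 12 libraries varied most for Lyve1 and Egfl7, whose highest CPM was 17.1 and 11.0 times the lowest. For the other 8 markers this ratio lay between 3.0002 (Kdr) and 5.45 (Fcgr2b). The mean of the markers' standardised log2 levels was highest in chow 1 light (0.87) and lowest in chow 2 heavy (-1.32), so the chow animals alone spanned the range. Of 2944 other genes with a mean of at least 50 counts, those most like this profile over the 12 libraries were Peak1 (Pearson r of 0.860), Zeb1 (0.842), Tnrc6c (0.841), Bicd2 (0.809) and Pik3r1 (0.789). These correlations are descriptions over libraries that share animals and scaling, and they carry no test.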

How the data were processed

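Each library was deposited as a table of whole-number counts by Entrez ID, which sum to different totals. The submitters' processing notes name Trimmomatic, HISAT2, StringTie and build mm10. Per the file headers, Bowtie2 aligned the reads of chow 1 and chow 2 and HISAT2 those of chow 3 and S209A; no aligner is named for keto. What counted the reads, with which strand setting and versions, is not given in the sources used here, so reads of overlapping genes cannot be told apart. Of 27179 IDs, 25275 matched RefSeq genes of GRCm38.p6, which gave symbols and positions; 0 ERCC IDs were among them and 0 columns stayed unused. Per the labels' protocols, 10 ng of RNA entered each library, and a stranded total RNA kit was used. The time label of the samples (0h) differs from the 24 h of the protocol, which was used. The series design text speaks of fasted livers, while the labels name a ketogenic diet, and the labels were followed.

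Genes were kept by filterByExpr at 10 counts, over all libraries or those of 1 pool. Libraries were scaled by TMM (factors 0.324 to 3.12). Tests were two-sided quasi-likelihood tests in edgeR (4.0.16), adjusted by Benjamini-Hochberg over all genes tested, at a threshold of 0.05. Heavy against light was fitted over 12 libraries with a block per animal, since both pools of an animal carry its number. Deviations of the heavy and light library from the chow means correlated at r of 0.338, 0.334 and 0.487 in chow 1, 2 and 3. For deviations from the keto means r was 0.068. This is a single value for both keto animals, since the deviations of 2 animals from their mean mirror each other. Diet was tested within each pool over 6 libraries. Each standard error is the size of the log2 change divided by the root of its F statistic. The p-values and standard errors of edgeR rest on a spread that the fit shares across genes and over all its libraries. They do not measure each gene's own spread between these animals. Alternatives were DESeq2 (1.42.0), limma-voom (3.58.1), RLE factors, TMM on nuclear protein-coding genes, other filters, other blocks and animals left out; leaving out chow 3 and S209A together was chosen after seeing the data, as were the intervals on counts multiplied by 0.5. The fits were also run on simulated counts, drawn from the same gene proportions in every library apart from the changed genes. That simulation held no differences between animals and no excess of even counts, so it does not speak to these features of the data.

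All 10 markers are named, with the 5 genes of most counts in the sinusoidal, pan-endothelial and pathway lists, the 3 of most counts in each other list, and any list gene that passed; not all of these are printed. The markers and lists were chosen with earlier results of these data known. Levels of different genes were not compared, since transcript lengths were not used here.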

Additional observations from a re-analysis of the deposited data

Results flagged for a closer look

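The heavy over light ratio of Ptprb ran in opposite directions in the diets: it was below 1 in all 3 chow animals (0.424, 0.737 and 0.869) and above 1 in both keto animals (1.05 and 1.17). The interaction estimate was log2 0.77 ± 0.56, with an unadjusted p of 0.174 and an adjusted p of 0.948 by edgeR, so the test of the difference did not pass; over the alternatives with an adjusted p it ran from 0.429 (chow 3 left out) to 1 (other animals left out, or no filter). The intervals of both keto ratios held 1, and with library totals in place of TMM the ratio was 1.49 in chow 2 and 0.919 in keto 1, so the opposite directions rest on the scaling.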

How the results depend on the processing

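Of 674 recomputed log2 values of the markers, 594 kept their direction and their side of the threshold, 19 kept their direction with no adjusted p from DESeq2, 59 changed sign without passing, and 2 passed, both Stab2 in chow without chow 3 (adjusted p by edgeR 0.00208, and 0.00271 without S209A too; 0.0972 to 1 under the other settings). No called value changed sign. The planned level per length was not run, since transcript lengths were not used here. With counts as deposited in place of counts multiplied by 0.5, 23 of 60 ratios had an interval below 1 and 7 above it, in place of 14 and 5.

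Genes called in heavy over light over all animals were 12 with DESeq2, 4 with limma-voom, 13 without a filter, 4 without S209A and 4 without chow 3 and S209A, in place of 1. In chow they were 94 with DESeq2, 13 without a filter and 400 without chow 3 and S209A, with 1 marker called, in place of 22. For keto against chow they were 92 with DESeq2, 4 with limma-voom, 115 without a filter and 17 with title wording as a batch in the heavy pool, and 21 without a filter in the light pool, in place of 0. At a mean of at least 50 counts edgeR called 0 genes in all animals, chow and the interaction, with 133, 364 and 236 at an unadjusted p under 0.05. With TMM on nuclear protein-coding genes, 16 genes were called higher and 1 lower in chow, in place of 17 and 5, and 0 higher and 11 lower in the interaction, in place of 2 and 13. The causes were not tested.

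Without the replicate block of animals edgeR called 0 genes in all animals, chow and the interaction (276, 391 and 324 at an unadjusted p under 0.05), and Clec4g over all animals was -0.0044. A replicate block across diets called 111 genes in the heavy pool and 5 in the light pool, with Lyve1 at 0.13 in heavy and Clec4g at 0.38 in light; the numbers do not pair the diets, since deviations correlated at r of -0.02 and -0.03 in heavy and light. No block changed the call of a marker.

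Scaled by library totals, the summed ratio was 0.823 in chow 1, 1.20 in chow 2, 0.672 in chow 3 and 1.41 in keto 2. Signs of uncalled log2 values also turned over all animals for Mrc1 and Egfl7 (-0.079 and -0.15 without S209A, -0.11 and -0.24 without chow 3 and S209A) and for Clec4g (-0.11 with limma-voom). In chow Fcgr2b was 0.32 without chow 3 and S209A, and in the interaction Clec4g was 0.10 with limma-voom. For keto over chow in heavy, Lyve1 was 0.21 with limma-voom and Stab2 -0.029 without a filter. In light, Fcgr2b was -0.29 with limma-voom and -0.0042 without a filter, and title wording as a batch gave Clec4g 0.41 and Ptprb -0.0088.

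Leaving out each chow or keto animal in turn gave 0 to 13 genes over all animals, 4 to 385 in chow with 0 to 1 markers, 0 to 214 in the interaction and 0 to 20 for keto over chow in heavy; the highest count of the last 3 came without chow 3. Over all animals Ptprb ran from -0.28 to 0.0054, Clec4g from -0.075 to 0.16, Mrc1 from -0.075 to 0.28 and Egfl7 from -0.028 to 0.49. In chow Lyve1 ran from -1.60 to 0.27 and Fcgr2b from -0.90 to 0.31. In the interaction the markers' median ran from -0.29 (without keto 1) to 0.81, Fcgr2b from -1.36 to 0.39, Clec4g from -0.44 to 0.26, Lyve1 from -0.25 to 1.61, Mrc1 from -0.51 to 1.26, Eng from -0.95 to 0.18 and Kdr from -0.50 to 0.18. For keto over chow in heavy, Fcgr2b ran from -0.97 to 0.024, Stab2 from -0.25 to 0.82, Kdr from -0.43 to 0.063, Lyve1 from -1.63 to 0.56, Clec4g from -0.40 to 0.13, Stab1 from -1.15 to 1.03 and Eng from -0.59 to 0.66. In light, Fcgr2b ran from -1.23 to 0.80, Kdr from -0.37 to 0.28, Ptprb from -0.13 to 0.85, Mrc1 from -0.24 to 0.49, Egfl7 from -0.28 to 0.49 and Clec4g from -0.74 to 0.42.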
